A study of Homo sapiens with 12 samples.

Results

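The genes described here moved in opposite directions in a pair of lymphoma lines made resistant to venetoclax: their RNA was more abundant in the resistant than in the parental cells of one line and less abundant in the resistant cells of the other. They were chosen by the measured values themselves, the counts in parental and resistant libraries of both lines. Of 18690 autosomal protein-coding genes, 8529 had a mean of 5 CPM (a gene's count per 1000000 counts of its library) or more in each line. Of these a gene was taken when its ratio of mean CPM, resistant to parental, was at least 1.5 in one line and at most the inverse of that in the other, and when no parental library overlapped a resistant one in either line. This gave 78 genes, or 0.915% of those with enough counts. In 23 of them the RNA was higher in resistant SUDHL6 and lower in resistant SUDHL16, and in 55 it was lower in resistant SUDHL6 and higher in resistant SUDHL16. The SUDHL6 condition alone was met upward by 149 of the 8529 genes (1.75%) and downward by 187 (2.19%), and the SUDHL16 condition alone was met upward by 1136 (13.3%) and downward by 830 (9.73%). By the same limits, 48 genes were higher in both resistant lines and 27 were lower in both. Because these contrasts chose the 78 genes, their ratios and their calls in any test of the same contrasts are a description and support nothing.

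SUDHL6 and SUDHL16 are human cell lines of diffuse large B cell lymphoma. The parental lines came from ATCC, while the resistant ones had been kept for a long time in rising concentrations of venetoclax (ABT-199), an inhibitor of BCL2, and grew at 10 times the original IC50. No engineered allele is named for any group, and the labels do not say whether the drug was in the medium at harvest. Total RNA was sequenced in 3 libraries of each of 4 groups: SUDHL6 parental (CE-7, CE-8, CE-9), SUDHL6 resistant (CE-10, CE-11, CE-12), SUDHL16 parental (CE-25, CE-26, CE-27) and SUDHL16 resistant (CE-28, CE-29, CE-30). Libraries of SUDHL6 (NEBNext Ultra II RNA kit) and SUDHL16 (Illumina Stranded Total RNA kit with ribosomal depletion) also came from different Illumina sequencers, which leaves line, kit and instrument inseparable: they cannot be told apart. Total counts per library were 33992784 to 40885665 in SUDHL6 and, CE-26 aside, 14335460 to 22068221 in SUDHL16. The labels do not say whether the libraries of a group come from separate cultures, so p-values here measure only the spread between these libraries.

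CE-26, the second parental library of SUDHL16, stood apart before any comparison was made. It had 4131927 counts, 31.9% of them on identifiers that the reference annotation does not hold (1.61% to 5.06% in the other SUDHL16 libraries), and 55.4% on protein-coding genes (84.3% to 90.2% in the others). It listed 34938 genes with a count, where its line's remaining libraries had 20896 to 24655. The rule leaves CE-26 out, so the SUDHL16 parental mean rests on CE-25 and CE-27, and the value in CE-26 is given beside it for some of the genes below. With CE-26 kept as a parental library, 11 genes were higher in resistant SUDHL6 and lower in resistant SUDHL16, 10 of them among the 23, and 57 moved the other way, 51 of them among the 55.

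Libraries of SUDHL16 also held RNA of marker genes of other cell types in unequal amounts, and whether it came from other cells was not tested. The 17 erythroid and megakaryocyte markers summed to 435 CPM in CE-25, 1480.0 in CE-26, 245 in CE-27, 216 in CE-28, 17.0 in CE-29 and 17.1 in CE-30, against 9.47 to 12.9 in SUDHL6. HBA2, a globin, led the list in CE-25 to CE-28, with 125, 435, 74.2 and 66.6 CPM, while EPOR led in CE-29, CE-30 and SUDHL6. The other globins of the list, HBA1, HBG1, HBG2 and HBB, had 119, 87.7, 73.1 and 25.5 CPM in CE-25. In CE-26 they had 424, 290, 212 and 104 CPM. Of the same list, PF4, PPBP and GP9 were at 0 in every library. The 21 myeloid markers summed to 39.2 CPM in CE-26, led by CSF3R, and to at most 5.12 CPM elsewhere. The 24 epithelial and stromal markers summed to 57.4, 100.2 and 53.1 CPM in CE-25, CE-26 and CE-27, led by DCN, to 16.2 to 31.2 CPM in the resistant SUDHL16 libraries, led by TAGLN, and to 12.8 to 22.7 CPM in SUDHL6, led by FN1, with EPCAM and VWF at 0 outside CE-26 apart from a trace of VWF in CE-9. The 26 T and NK cell markers summed to 73.7 to 148.9 CPM, led by LCK in every library (45.8 to 139.9 CPM), and CD8B and GZMA were at 0 throughout. CD3E had 1.26, 3.15 and 1.39 CPM in CE-25, CE-26 and CE-27 and 13.7, 14.1 and 11.6 CPM in the resistant SUDHL16 libraries, and CD247 was also higher in each of the latter (4.05 to 6.52 CPM, against 0 to 2.42 CPM), while GATA3 was lower in each of them (0.696 to 1.40 CPM, against 1.69 to 4.70 CPM) and TRAC had a mean of 19.5 CPM in CE-25 and CE-27 and 14.3 CPM in the resistant libraries. HBA2, DCN and LUM were higher in the 3 parental than in the resistant SUDHL16 libraries, although CE-28 was close to CE-27 for HBA2, while TAGLN and ACTA2 of the stromal list had higher means in the resistant ones. The part of such RNA in the members' values was not tested.

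Venetoclax fits into the groove of BCL2 that normally holds proapoptotic BH3 proteins, so cells that depend on BCL2 lose the brake on mitochondrial apoptosis. Other guardians of the family, MCL1 among them, and the supply of BH3 proteins such as PUMA set how much a cell depends on BCL2. Lymphomas of germinal centre type keep features of B cells that cycle between rapid division and activation by antigen, CD40 and NF-kappaB, and they can drift toward a secretory programme governed by XBP1.

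The labels name diffuse large B cell lymphoma, and B cell markers were present throughout. MS4A1, CD79A, CD79B, PAX5, CD22 and BLK were each above 5 CPM in all 12 libraries. MS4A1 was the most abundant of them in SUDHL6, and CD22, PAX5 or CD79A in SUDHL16. Of the 6 germinal centre markers, SERPINA9 was near 1 CPM in SUDHL6 (0.644, 1.44 and 0.685 CPM in parental and 0.672, 0.645 and 0.773 CPM in resistant libraries) and well above that in SUDHL16 (154 and 162 CPM in CE-25 and CE-27, 85.9 CPM in CE-26). The other 5, BCL6, MME, MYBL1, LMO2 and S1PR2, were above 5 CPM in all 12 libraries. MYBL1 is itself one of the 23 genes, and BCL6 lay just outside the ratio limit.

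The size of the changes differed between the lines and between the directions. For the 23 genes the median log2 ratio was 0.83 in SUDHL6 (0.61 to 1.94) and -0.99 in SUDHL16 (-5.58 to -0.60). For the 55 it was -0.83 in SUDHL6 (-3.55 to -0.60) and 1.67 in SUDHL16 (0.60 to 7.55). The change was larger in SUDHL16 for 14 of the 23 and 47 of the 55. Over all 8529 genes the median absolute log2 ratio was 0.116 in SUDHL6 and 0.314 in SUDHL16, so SUDHL16 ratios ran larger in general. A change of at least 8-fold in SUDHL16 was present in 2 of the 23 genes, AHR and GPD2, and in 11 of the 55. In SUDHL6 only ZBTB38 changed that much. APOL6 and GPX7 had no counts in CE-25 or CE-27, so their SUDHL16 ratios are lower bounds, taken against 3 counts per library, and the medians hold them at those bounds.

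**Figure D1:**
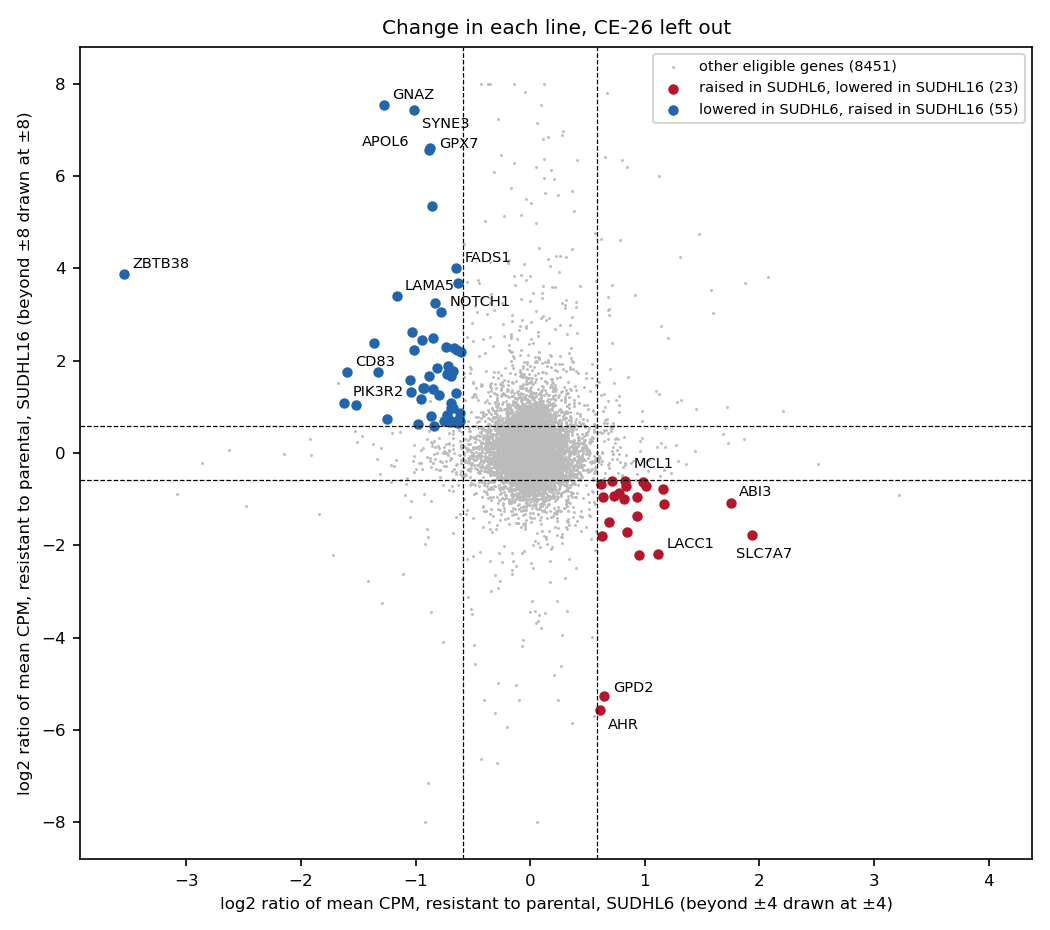
Each point is a gene with a mean of at least 5 CPM in each line; the axes are the log2 ratio of mean CPM, resistant to parental, in SUDHL6 (across) and SUDHL16 (up), without CE-26, and dashed lines mark the 1.5-fold limits. The 23 genes in red fill the lower right corner and the 55 in blue the upper left, as the rule requires, and AHR and GPD2 lie far below the rest of the 23.

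The genes nearest the limit show how fine it is. Just inside it for the 23 were MCL1 (log2 ratios 0.83 in SUDHL6 and -0.60 in SUDHL16), AHR (0.61 and -5.58) and NAGPA (0.61 and -0.67). Just outside, on the SUDHL6 side of the limit, were SSBP2 (0.57 and -1.68), BCL6 (0.57 and -0.59) and PRKCA (0.57 and -2.10). For the 55, PKIG (-0.84 and 0.60), PLXNC1 (-0.60 and 2.19) and LPCAT3 (-0.61 and 0.70) were just inside, and UAP1L1 (-0.58 and 1.64), CD40 (-0.58 and 1.73) and PIK3C2B (-0.58 and 4.52) just outside. A further 7 genes met both ratio limits but had overlapping libraries: PVRIG, ENSG00000259522 and ENSG00000268173 in the direction of the 23, and ZEB2, MAGEF1, CORO7-PAM16 and PEDS1-UBE2V1 in that of the 55.

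All 78 genes passed edgeR's filter on low counts in each fit, and the counts of calls below (adjusted p under 0.05 and at least 1.5-fold) describe the spread between libraries. In SUDHL6 all 23 were called as raised, where 4.31% of 16662 genes were, and 54 of 55 as lowered, where 4.65% were; the exception was RNF24. In SUDHL16 with all 6 libraries, 6 of the 23 were called as lowered (2.1% of 15708 genes), namely AHR, GPD2, LACC1, LPIN1, NCOA1 and UEVLD, and 27 of the 55 as raised (3.2%). Without CE-26 these were 11 of 23 (3.32% of 16280 genes lowered) and 38 of 55 (6.73% raised). For the difference between the lines, fitted over all 12 libraries as the SUDHL16 change less the SUDHL6 change, 20 of 23 were called as lowered (2.81% of 19621 genes) and 46 of 55 as raised (4.34%). The biological coefficient of variation was 0.0516 in SUDHL6, 0.468 in SUDHL16 and 0.339 there without CE-26. Leaving out any other SUDHL16 library, with CE-26 kept, left 10 to 15 of the 78 called there. The share over all genes was not taken for those fits.

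Within groups the members varied more in SUDHL16. The ratio of the highest to the lowest library had a median of 1.10 and 1.08 over the 23 genes in parental and resistant SUDHL6, and of 1.16 between CE-25 and CE-27 and 1.71 among the resistant SUDHL16 libraries. Over the 55 these medians were 1.08, 1.13, 1.21 and 1.53, and over all 8529 genes 1.06, 1.06, 1.14 and 1.48. Among groups of 3 libraries, the one case of a library at the same end for most members was CE-28, the lowest resistant SUDHL16 library for 13 of the 23, and also the most often lowest over all genes (3490 of 8529). Of the pair CE-25 and CE-27, CE-27 was the higher for 11 of the 23 and 32 of the 55, and for 3807 of all 8529. In the plot of all members by library these differences show as uneven shades within the SUDHL16 blocks.

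**Figure D2:**
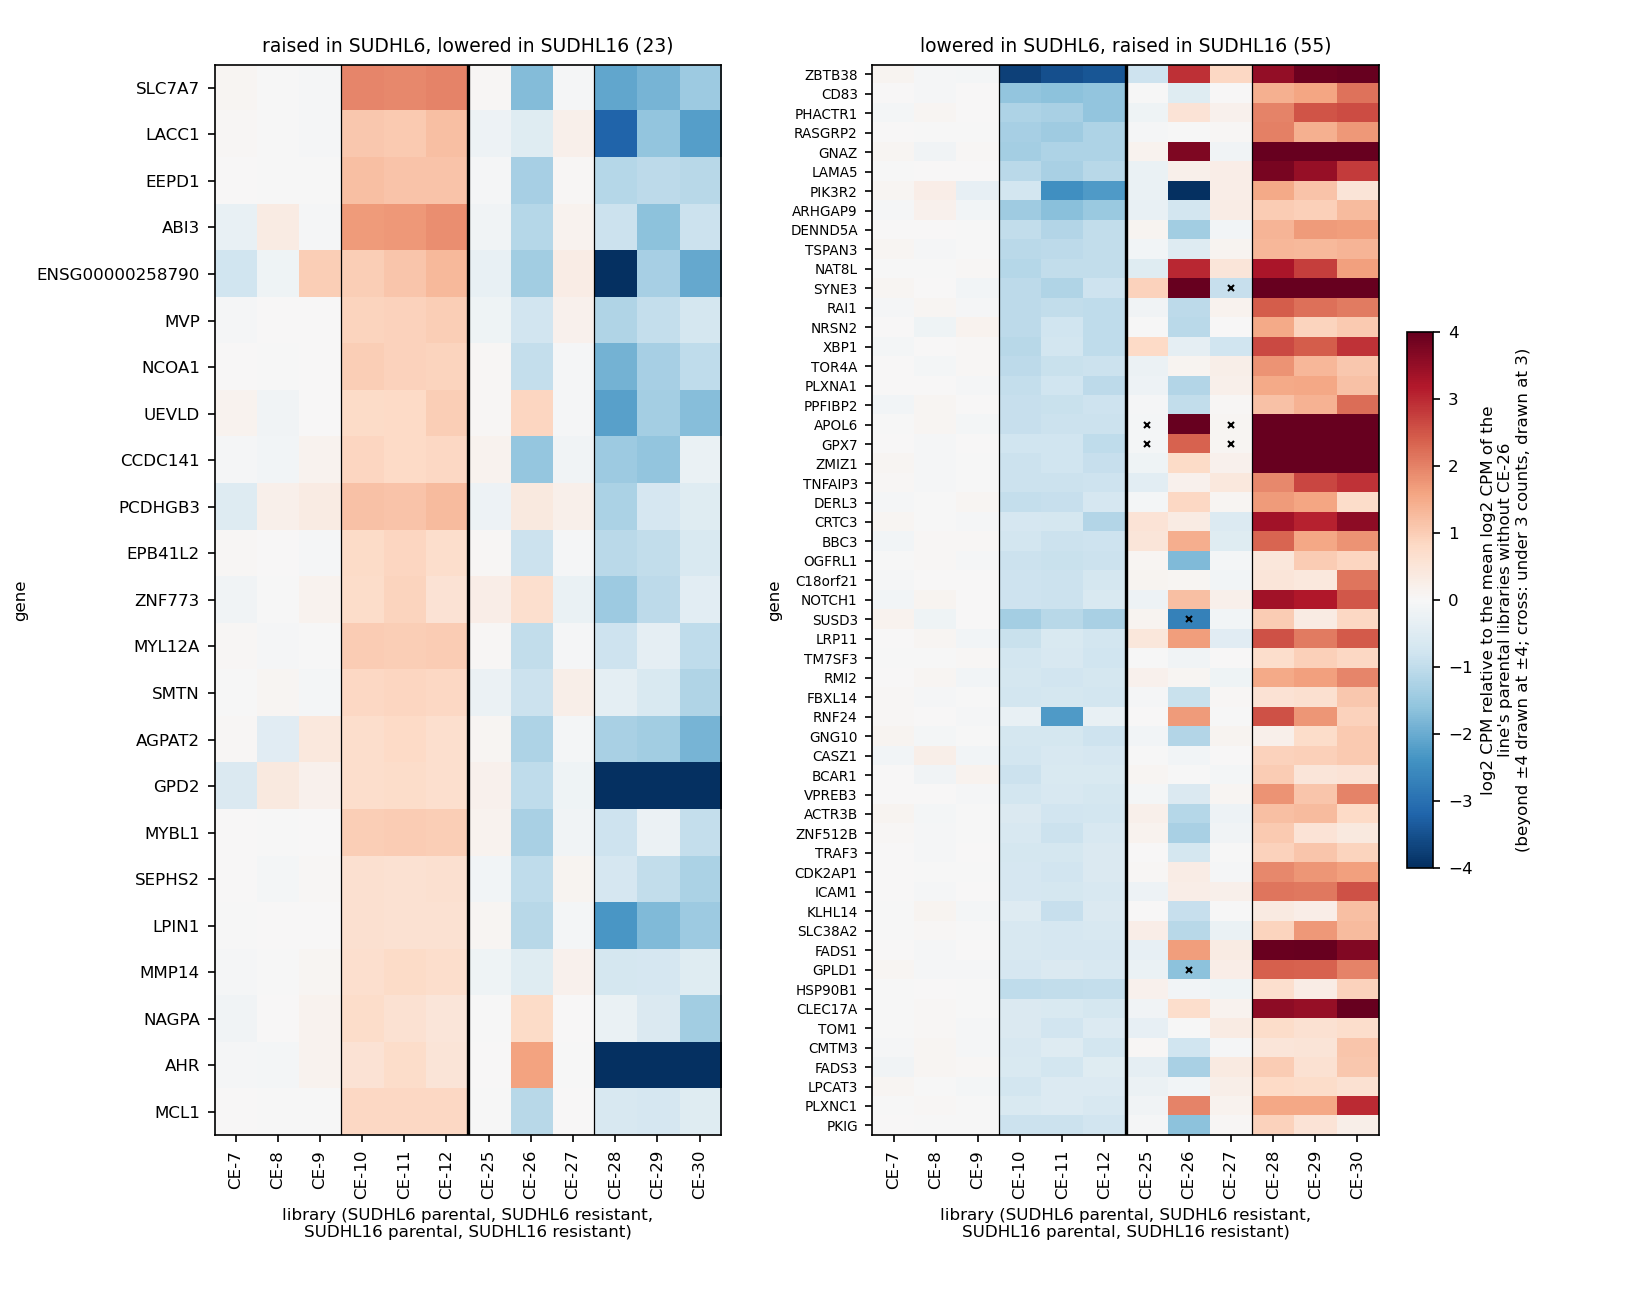
Each cell is the log2 CPM of a member in 1 library relative to the mean log2 CPM of the parental libraries of its line (CE-26 left out of that mean), with the 23 genes on the left and the 55 on the right, values beyond 4 drawn at 4, and crosses where a library had under 3 counts. Blocks of opposite colour in the resistant libraries of the lines are what the rule selected, and the CE-26 column often departs from CE-25 and CE-27.

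The members are taken below by their roles. These role groups were formed after the values were seen and carry no test; 40 members met the rule for naming and the other 38 are named as well so that each is accounted for. A lower CPM in bulk RNA can come from fewer cells that carry the transcript or from less of it in each cell, and these cannot be told apart.

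Apoptosis genes gave 1 member to each direction. MCL1 (ENSG00000143384), an antiapoptotic relative of BCL2, had 528, 525 and 525 CPM in parental and 933, 937 and 937 CPM in resistant SUDHL6, a 1.78-fold rise. In SUDHL16 it had 432 and 436 CPM in CE-25 and CE-27, 199.7 CPM in CE-26 and 278, 272 and 309 CPM in the resistant libraries, 1.51-fold less without CE-26. The SUDHL6 groups were far apart relative to their spread, and the SUDHL16 groups were separate only without CE-26, which lay below every resistant library. BBC3 (ENSG00000105327), which encodes the BH3 protein PUMA, went the other way: 7.11, 7.80 and 7.90 CPM in parental and 4.61, 4.14 and 4.25 CPM in resistant SUDHL6 (1.75-fold lower), and 7.13 and 3.71 CPM in CE-25 and CE-27, 14.0 CPM in CE-26 and 25.6, 14.9 and 17.8 CPM in resistant SUDHL16 (3.58-fold higher). CE-26 was close under the lowest resistant library for BBC3. Thus the resistant SUDHL6 libraries held more MCL1 and less BBC3 than their parents. The resistant SUDHL16 libraries held less MCL1 and more BBC3 than CE-25 and CE-27. With CE-26 kept, these SUDHL16 folds were 1.24 for MCL1 and 2.34 for BBC3. In SUDHL16 edgeR called MCL1 neither with nor without CE-26, and BBC3 only without it. Per kb of exon, MCL1 stood at 84.6 CPM and BBC3 at 2.39 CPM in parental SUDHL6, and at 69.7 and 1.70 CPM in parental SUDHL16. Of the 38 other apoptosis genes tested in each line, edgeR called CASP4 and GSDME among those raised and 3 lowered (BCL2A1, BCL2L11, HRK) in SUDHL6. In SUDHL16 it called BCL2L1 raised and HRK lowered, and without CE-26 also BCL2A1, CASP1 and CASP10 raised.

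Promoters are shown for 6 members that share a role with another member of the same direction or stand for an opposed pair, since members that move together are where a reader would look for common sequence. RefSeq windows of 300 bases (250 before to 50 after the start, build GRCh38.p14) matched 62 of the 78 members, 19 of the 23 and 43 of the 55; ABI3, APOL6, ARHGAP9, C18orf21, CASZ1, CLEC17A, DERL3, ENSG00000258790, GNAZ, KLHL14, MCL1, MYBL1, RMI2, TSPAN3, ZMIZ1 and ZNF512B had none. Capitals mark matches on either strand to any of 11 motifs: CRE TGACGTCA, AP-1 TGANTCA, E-box CACGTG, ISRE core GAAANNGAA, GAS TTCNNNGAA, NF-kappaB GGGANTTCC, octamer ATGCAAAT, CCAAT box CCAAT, ETS CCGGAAGT, GC box GGGCGG and TATA box TATAAA. The window of BBC3 (chr19:47232618-47232917, minus strand) reads, 5′ to 3′:
BBC3: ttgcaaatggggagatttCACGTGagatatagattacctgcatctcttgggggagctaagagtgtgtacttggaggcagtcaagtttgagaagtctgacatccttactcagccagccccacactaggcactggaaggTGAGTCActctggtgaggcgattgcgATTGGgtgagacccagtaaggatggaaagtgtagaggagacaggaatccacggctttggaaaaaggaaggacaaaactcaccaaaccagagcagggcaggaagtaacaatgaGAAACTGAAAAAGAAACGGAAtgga
It held 1 AP-1 match, 1 E-box, 1 CCAAT box and 3 overlapping ISRE core matches just after the start, and no GC box. Of all 35116 promoters in the table, 7.71% held the AP-1 letters, 7.26% the E-box, 34.6% the CCAAT box, 8.11% the ISRE core and 45.0% the GC box. A match is a run of letters and was not tested as a binding site.

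From the NF-kappaB list came TNFAIP3 and TRAF3, both of the 55, and CD83 and ICAM1 are placed beside them. CD83 (ENSG00000112149), a surface marker of activated B and dendritic cells, had 329, 316 and 329 CPM in parental and 109.5, 104 and 108 CPM in resistant SUDHL6. In SUDHL16 the values were 119.8 and 123 CPM in CE-25 and CE-27, 86.6 CPM in CE-26 and 325, 362 and 549 CPM in the resistant libraries. The change was 3.03-fold down and 3.39-fold up, and the resistant level of each line came near the parental level of the other, with kit and instrument differing between them. TNFAIP3 (ENSG00000118503), the deubiquitinating enzyme A20 that shuts off NF-kappaB, had 42.4, 40.2 and 40.9 CPM in parental and 22.8, 22.5 and 23.3 CPM in resistant SUDHL6, and 6.47 and 11.4 CPM in CE-25 and CE-27, 9.68 CPM in CE-26 and 32.7, 54.2 and 63.4 CPM in resistant SUDHL16. TRAF3 (ENSG00000131323), which holds down the noncanonical NF-kappaB kinase, had 23.4, 22.7 and 23.8 CPM in parental and 14.2, 14.2 and 15.4 CPM in resistant SUDHL6, and 76.2 and 76.1 CPM in CE-25 and CE-27, 47.2 CPM in CE-26 and 145, 164 and 142 CPM in resistant SUDHL16. Both are inhibitors of the pathway, both were lower in all 3 resistant SUDHL6 libraries and higher in all 3 resistant SUDHL16 libraries, and CE-26 lay on the parental side for both. ICAM1 (ENSG00000090339), an adhesion molecule bound by LFA-1, had 81.0, 77.4 and 80.6 CPM in parental and 50.4, 48.7 and 51.6 CPM in resistant SUDHL6, and 17.3 and 22.9 CPM in CE-25 and CE-27, 24.0 CPM in CE-26 and 88.6, 86.7 and 116 CPM in resistant SUDHL16. Of the other 32 NF-kappaB genes tested in SUDHL6, CFLAR was raised and 2 were lowered, NFKBID among them. Of 33 in SUDHL16 TRAF1 and TRAF5 were raised; edgeR called 0 lowered, where 1 passed at an unadjusted p and DESeq2 called 1, and MAP3K14 was called lowered without CE-26. The median log2 change of these others was -0.12 in SUDHL6 and 0.28 in SUDHL16.

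TNFAIP3 (chr6:137867009-137867308, plus strand) and TRAF3 (chr14:102777199-102777498, plus strand) are shown because both hold an NF-kappaB match, and ICAM1 (chr19:10270870-10271169, plus strand) because it stands beside them without one:
TNFAIP3: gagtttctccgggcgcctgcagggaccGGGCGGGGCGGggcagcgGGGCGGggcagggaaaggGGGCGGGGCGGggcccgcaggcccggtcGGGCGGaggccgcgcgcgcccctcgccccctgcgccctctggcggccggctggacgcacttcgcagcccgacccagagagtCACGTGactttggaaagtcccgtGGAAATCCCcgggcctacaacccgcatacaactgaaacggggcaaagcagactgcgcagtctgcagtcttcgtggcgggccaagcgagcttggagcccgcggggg
TRAF3: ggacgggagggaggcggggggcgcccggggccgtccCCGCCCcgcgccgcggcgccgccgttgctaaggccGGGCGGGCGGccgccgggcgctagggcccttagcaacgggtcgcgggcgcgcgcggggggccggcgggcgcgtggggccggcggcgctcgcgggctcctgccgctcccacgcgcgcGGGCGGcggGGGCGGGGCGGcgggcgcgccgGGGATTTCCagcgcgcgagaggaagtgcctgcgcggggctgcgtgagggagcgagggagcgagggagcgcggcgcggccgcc
ICAM1: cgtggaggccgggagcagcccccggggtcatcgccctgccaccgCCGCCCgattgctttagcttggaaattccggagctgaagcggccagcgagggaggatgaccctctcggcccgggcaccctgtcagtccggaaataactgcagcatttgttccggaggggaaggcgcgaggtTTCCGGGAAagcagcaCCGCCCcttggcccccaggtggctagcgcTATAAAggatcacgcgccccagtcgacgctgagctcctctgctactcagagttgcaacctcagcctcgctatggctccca
TNFAIP3 held 1 NF-kappaB match, 1 E-box and 6 GC boxes, some of which overlap. TRAF3 held 1 NF-kappaB match and 6 GC boxes, and ICAM1 a GAS match, a TATA box and 2 GC boxes. The NF-kappaB letters were in 3 of the 43 matched promoters of the 55 genes, namely TNFAIP3, TRAF3 and FADS3, in 1 of the 19 of the 23 genes, ZNF773, and in 2.39% of 7126 promoters of genes with enough counts. The ICAM1 window does hold the similar run ggaaattcc, left unmarked because the searched word GGGANTTCC does not cover it. That ICAM1 lacks the searched letters here therefore says nothing about NF-kappaB at this gene.

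NOTCH1, VPREB3, CLEC17A and KLHL14 are likewise of the 55. NOTCH1 (ENSG00000148400), a receptor whose freed intracellular part acts as a transcription factor, had 14.2, 16.6 and 15.5 CPM in parental and 8.61, 8.44 and 10.00 CPM in resistant SUDHL6. In SUDHL16 it had 6.23 and 8.28 CPM in CE-25 and CE-27, 16.7 CPM in CE-26 and 74.1, 66.8 and 40.6 CPM in the resistant libraries, 8.34-fold more than in CE-25 and CE-27 on average. CE-26 was above both other parental libraries and below all 3 resistant ones. Among 54 other Wnt, Notch, Hedgehog and TGF-beta genes tested in SUDHL6, 9 were called lowered, including the Notch targets HES1, HEY1 and NRARP, and 3 raised (DKK1, ID1, WNT10A). In SUDHL16 with CE-26 kept, 2 of 46 were raised (DVL2, SMO) and 3 lowered (ACVR2A, LRP6, SMAD6), so HES1, HEY1 and NRARP were not called there. Without CE-26, 10 of 46 were raised, including the Notch genes DLL1, JAG1 and LFNG, and the same number as before, 3, lowered. VPREB3 (ENSG00000128218), a B lineage chaperone of the antigen receptor, had 58.4, 57.6 and 56.0 CPM in parental and 34.4, 37.0 and 35.4 CPM in resistant SUDHL6, and 32.6 and 36.0 CPM in CE-25 and CE-27, 22.7 CPM in CE-26 and 119, 74.2 and 134 CPM in resistant SUDHL16. It is a short gene, and per kb of exon its mean over the libraries was 108 CPM, above the 106 CPM of CD83 and the 89.3 CPM of MCL1. By group, it was the highest of these genes only in resistant SUDHL16 (192 CPM, CD83 173 CPM). In parental SUDHL6 it was below CD83 (101 and 136 CPM). Against MCL1 it was lower in resistant SUDHL6 (62.7 and 150 CPM) and parental SUDHL16 (60.5 and 69.7 CPM). CLEC17A, a lectin of germinal centre B cells, fell from 55.1 to 35.5 mean CPM in SUDHL6 and stood at 5.501 and 70.8 mean CPM in parental and resistant SUDHL16. KLHL14, a ubiquitin ligase adaptor that lowers the antigen receptor, went from 8.02 to 5.08 mean CPM in SUDHL6 and from 41.8 to 66.5 in SUDHL16.

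**Figure D3:**
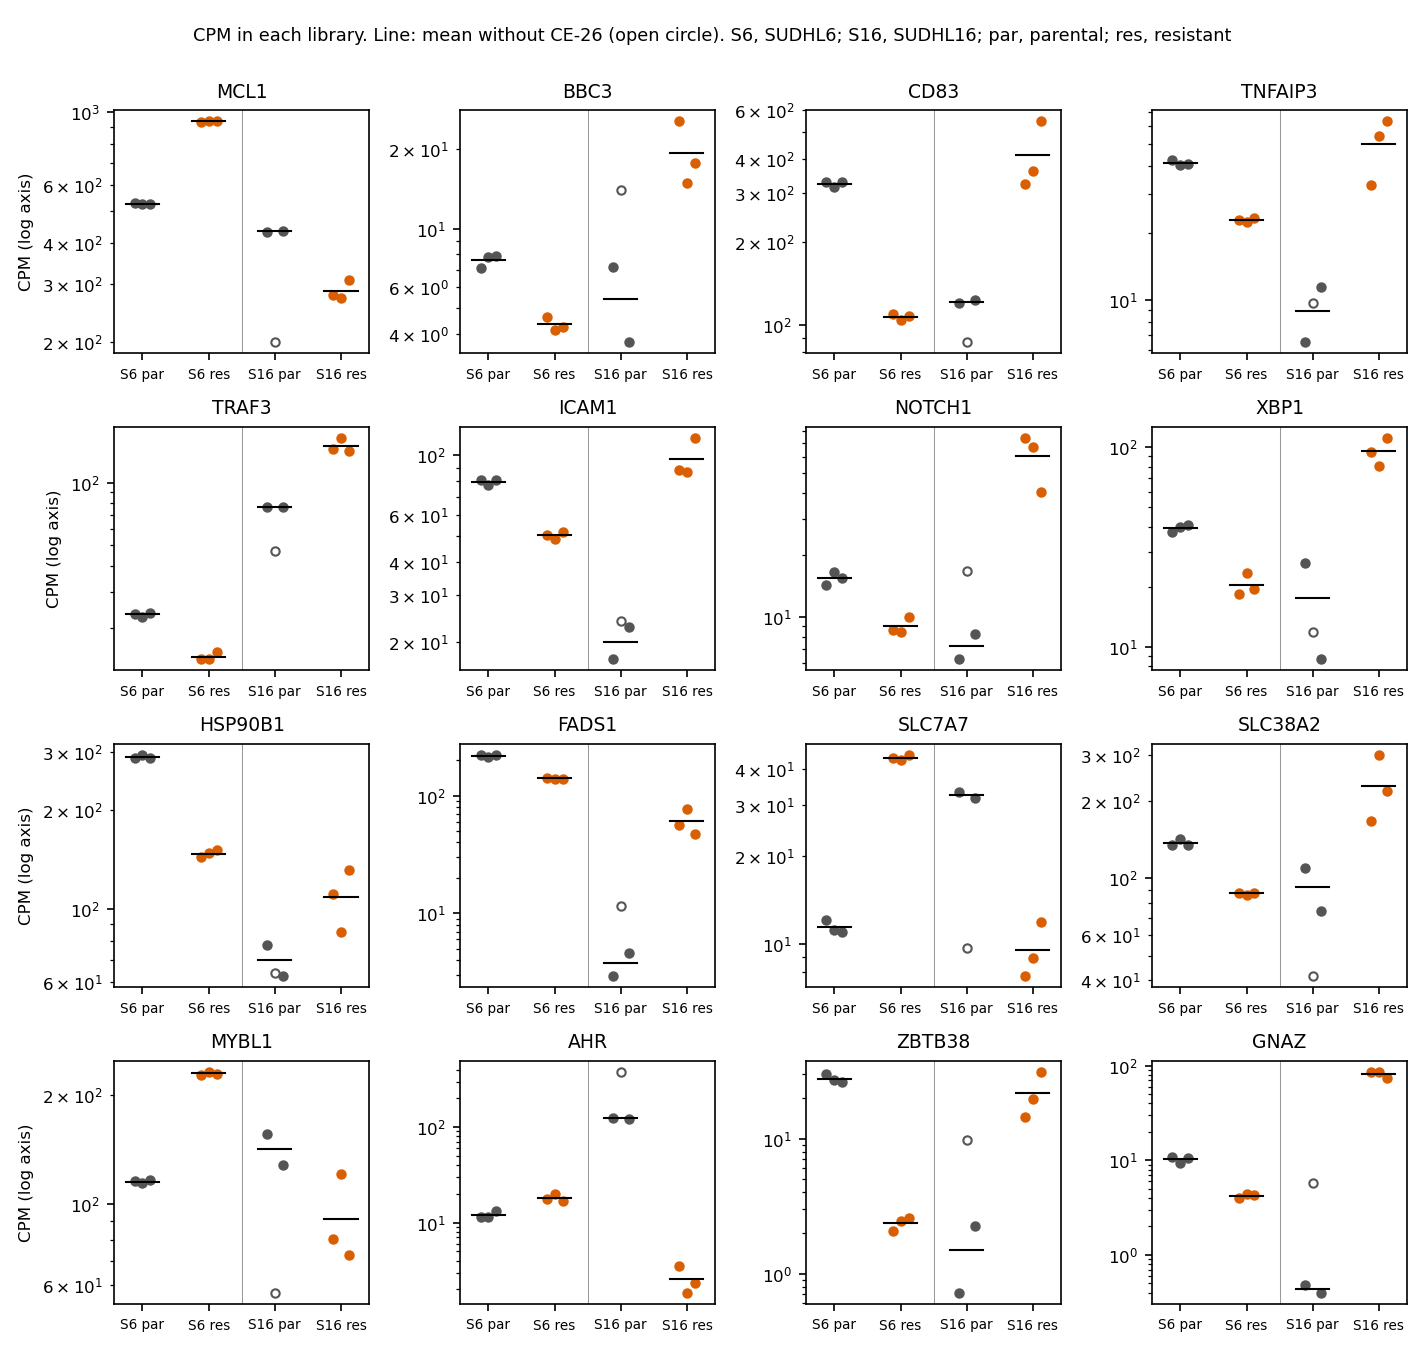
CPM of 16 members in each library on a log axis, with bars at group means without CE-26 (open circle). In every panel the resistant points (orange) move one way from the parental points (grey) in SUDHL6 and the other way in SUDHL16, and CE-26 is far above the other parental libraries for AHR and below them for MCL1.

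Described together here are XBP1, HSP90B1, DERL3, GPX7 and TOR4A, all of the 55, whose products act in or for the endoplasmic reticulum. XBP1 (ENSG00000100219), the transcription factor of secretory B cells, had 37.8, 39.9 and 40.8 CPM in parental and 18.5, 23.5 and 19.5 CPM in resistant SUDHL6. In SUDHL16 it had 26.3 and 8.68 CPM in CE-25 and CE-27, 11.9 CPM in CE-26 and 95.01, 81.0 and 111 CPM in the resistant libraries. CE-25 was far above CE-27, yet both were below every resistant library, as was CE-26. HSP90B1 (ENSG00000166598), the chaperone GRP94, had 287, 294 and 288 CPM in parental and 144, 147 and 151 CPM in resistant SUDHL6, and 77.7 and 62.5 CPM in CE-25 and CE-27, 63.9 CPM in CE-26 and 111, 85.0 and 131 CPM in resistant SUDHL16. Its SUDHL6 change (1.97-fold) was wide relative to the spread, and in SUDHL16 (1.55-fold) the highest parental and lowest resistant libraries were close. DERL3, which helps to pull misfolded proteins out of the reticulum, had mean values of 12.6 and 7.01 CPM in SUDHL6 and 2.84 and 7.44 CPM in SUDHL16, and CE-26 (5.08 CPM) lay within its resistant range. GPX7 (ENSG00000116157), a peroxidase of the same compartment, had 15.9, 15.3 and 15.8 CPM in parental and 9.01, 8.98 and 7.76 CPM in resistant SUDHL6. It was at 0 in CE-25 and CE-27 and at 0.968 CPM in CE-26, against 15.6, 14.0 and 25.7 CPM in resistant SUDHL16, at least 97.5-fold higher without CE-26. TOR4A, a torsin ATPase of the same membrane system, went from 10.1 to 5.31 mean CPM in SUDHL6 and from 26.8 to 71.5 in SUDHL16. Of the 63 other stress and redox genes tested in each line, edgeR called 6 raised and 4 lowered in SUDHL6, and 9 raised and 2 lowered in SUDHL16, or 11 and 6 without CE-26. In the list of B cell and plasma cell transcription factors, which holds XBP1, the others called in SUDHL6 were ID2 and MEF2C raised and BACH2, BHLHE40, IRF4, TCF4 and ZEB2 lowered. In SUDHL16 they were ELK3 and PRDM1 raised and IKZF2 lowered, with BATF, ID3 and IRF4 also raised and RUNX1 lowered without CE-26.

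The promoters of XBP1 (chr22:28800520-28800819, minus strand) and HSP90B1 (chr12:103930160-103930459, plus strand) are shown for the CCAAT boxes they share:
XBP1: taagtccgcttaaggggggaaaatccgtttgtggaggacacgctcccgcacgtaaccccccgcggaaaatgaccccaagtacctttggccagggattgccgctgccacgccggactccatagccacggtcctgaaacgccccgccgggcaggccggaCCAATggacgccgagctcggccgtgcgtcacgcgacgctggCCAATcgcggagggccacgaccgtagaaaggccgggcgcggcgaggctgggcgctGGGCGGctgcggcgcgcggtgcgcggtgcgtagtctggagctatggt
HSP90B1: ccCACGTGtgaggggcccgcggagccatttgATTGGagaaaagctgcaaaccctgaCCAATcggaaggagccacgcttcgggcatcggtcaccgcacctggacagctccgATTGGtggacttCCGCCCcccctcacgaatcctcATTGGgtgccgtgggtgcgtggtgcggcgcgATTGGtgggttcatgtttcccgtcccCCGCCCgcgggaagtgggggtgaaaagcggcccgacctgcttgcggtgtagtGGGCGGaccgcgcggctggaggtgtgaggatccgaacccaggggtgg
XBP1 held 2 CCAAT boxes and 1 GC box, and HSP90B1 5 CCAAT boxes, 3 GC boxes and 1 E-box. The CCAAT letters were in 11 of 43 promoters of the 55 genes (25.6%), in 8 of 19 of the 23 genes (42.1%) and in 38.9% of the 7126, so a CCAAT match was not general among the 55.

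FADS1 and FADS3 were the members of the fixed lipid list; LPCAT3, GPLD1, LPIN1, AGPAT2 and GPD2 are placed beside them. FADS1 (ENSG00000149485) and FADS3, which put double bonds into fatty acids and sphingoid bases and lie 68.3 kb apart by their midpoints on chromosome 11, were both lower in resistant SUDHL6 and higher in resistant SUDHL16. FADS1 had 222, 214 and 221 CPM in parental and 142, 139 and 139 CPM in resistant SUDHL6, and 2.94 and 4.57 CPM in CE-25 and CE-27, 11.6 CPM in CE-26 and 56.6, 76.7 and 47.4 CPM in resistant SUDHL16. It was 16.05-fold higher in resistant SUDHL16 and still below every SUDHL6 library. FADS3 had 15.04, 17.6 and 16.9 CPM in parental and 10.8, 9.85 and 11.7 CPM in resistant SUDHL6, and 51.4 and 84.6 CPM in CE-25 and CE-27, 26.9 CPM in CE-26 and 134, 100.03 and 139.6 CPM in resistant SUDHL16. In SUDHL16 edgeR called FADS1 with and without CE-26, and FADS3 in neither fit. The FADS3 fold there was 1.47 with CE-27 as the only parental library. LPCAT3, which loads polyunsaturated chains onto phospholipids, was 1.53-fold lower in resistant SUDHL6 and 1.63-fold higher in resistant SUDHL16. GPLD1, a phospholipase that cuts GPI anchors, was 1.55-fold lower and 4.70-fold higher, and it was at 0 in CE-26. The other 3 belong to the 23. LPIN1, the phosphatidic acid phosphatase that makes diacylglycerol, had 177, 177 and 177 CPM in parental and 276, 271 and 272 CPM in resistant SUDHL6, and 427 and 385 CPM in CE-25 and CE-27, 187 CPM in CE-26 and 81.3, 119.8 and 147 CPM in resistant SUDHL16. AGPAT2, which makes phosphatidic acid, was 1.61-fold higher in resistant SUDHL6 and 2.81-fold lower in resistant SUDHL16. GPD2, the mitochondrial glycerol-3-phosphate dehydrogenase, had 2.93, 5.74 and 4.92 CPM in parental and 7.04, 7.27 and 6.96 CPM in resistant SUDHL6, against 65.0 and 51.2 CPM in CE-25 and CE-27, 28.8 CPM in CE-26 and 0.977, 2.29 and 1.27 CPM in resistant SUDHL16. GPD2 was thus nearly lost in resistant SUDHL16 (38.5-fold lower) and modestly higher in resistant SUDHL6 (1.57-fold), with CE-26 between the SUDHL16 groups. Of 56 other lipid and cholesterol genes tested in SUDHL6, PTGS1 was raised and 3 were lowered, among them ABCA1 and SMPD3, and of 53 in SUDHL16 6 were raised (ACSL1, ELOVL6, FADS2, PLTP, PTGS1 and SREBF1). There edgeR called 0 lowered, where 5 passed at an unadjusted p and DESeq2 called 4. Without CE-26 8 were raised and 2 lowered. FADS2, next to FADS1 and overlapping it on the other strand, thus rose with it in SUDHL16, and it was not called in SUDHL6.

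The amino acid list gave a transporter to each direction. SLC7A7 (ENSG00000155465), the light chain of the exchanger y+LAT1 for cationic and neutral amino acids, had the largest SUDHL6 rise of the 23: 12.1, 11.1 and 10.9 CPM in parental and 43.6, 42.7 and 44.6 CPM in resistant libraries. In SUDHL16 it had 33.3 and 31.7 CPM in CE-25 and CE-27, 9.68 CPM in CE-26 and 7.74, 8.90 and 11.9 CPM in the resistant libraries. It was 3.83-fold higher in resistant SUDHL6 and 3.41-fold lower in resistant SUDHL16, and CE-26 lay within the SUDHL16 resistant range. SLC38A2 (ENSG00000134294), the neutral amino acid importer SNAT2, had 135, 142 and 134 CPM in parental and 87.3, 86.3 and 87.7 CPM in resistant SUDHL6, and 109.9 and 74.5 CPM in CE-25 and CE-27, 41.6 CPM in CE-26 and 167, 301 and 218 CPM in resistant SUDHL16. CE-26 was the lowest SUDHL16 library for SLC38A2. Of 44 other genes of amino acid, serine and one-carbon supply tested in SUDHL6, SLC7A11 was raised and ARG2, GLS2 and KYNU lowered. Of 40 in SUDHL16, 6 were raised (AHCY, ASNS, SHMT1, SHMT2, SLC3A2 and SLC43A1) and GLUL, ODC1 and SLC43A2 lowered, and without CE-26 12 were raised and 3 lowered. SLC3A2, raised in SUDHL16, encodes the heavy chain that SLC7A7 pairs with.

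Regulators of transcription included the largest ratio of the 23 in SUDHL16 and of the 55 in SUDHL6. AHR (ENSG00000106546), a ligand-activated transcription factor, had 11.6, 11.3 and 13.1 CPM in parental and 17.7, 20.03 and 17.0 CPM in resistant SUDHL6, and 126 and 121 CPM in CE-25 and CE-27, 380.2 CPM in CE-26 and 3.56, 1.84 and 2.36 CPM in resistant SUDHL16. It was 47.7-fold lower in resistant SUDHL16, and CE-26 was the highest library of all. ZBTB38 (ENSG00000177311), a zinc finger protein that binds methylated DNA, was the strongest of the 55 in SUDHL6: 29.8, 26.9 and 26.05 CPM in parental and 2.07, 2.43 and 2.60 CPM in resistant libraries, 11.7-fold less. In SUDHL16 it had 0.719 and 2.25 CPM in CE-25 and CE-27, 9.68 CPM in CE-26 and 14.4, 19.5 and 31.3 CPM in the resistant libraries. ZBTB38 was low in resistant SUDHL6 and in CE-25 and CE-27 and well above that in each library of parental SUDHL6 and resistant SUDHL16, with CE-26 in between. MYBL1, the A-MYB factor of germinal centre cells, had 116, 114 and 116 CPM in parental and 227, 231 and 228 CPM in resistant SUDHL6, and 156 and 128 CPM in CE-25 and CE-27, 57.1 CPM in CE-26 and 80.4, 121 and 72.4 CPM in resistant SUDHL16. CE-26 was below all 3 resistant libraries for MYBL1, and the nearest of the other libraries, CE-27 and CE-29, were close. NCOA1, a coactivator of nuclear receptors, was 1.91-fold higher in resistant SUDHL6 and 2.58-fold lower in resistant SUDHL16. ZMIZ1, a coactivator that works with NOTCH1 among others, had a mean of 32.4 CPM in parental and 17.8 CPM in resistant SUDHL6, and of 5.35 and 219 CPM in SUDHL16, a 40.8-fold difference with CE-26 at 8.95 CPM. CRTC3, a coactivator of CREB, and RAI1, a chromatin-bound regulator of transcription, were lower in resistant SUDHL6 (1.78-fold and 2.02-fold) and higher in resistant SUDHL16 (9.57-fold and 4.71-fold). The zinc finger genes CASZ1 and ZNF512B were 1.61-fold and 1.62-fold lower in resistant SUDHL6 and 1.97-fold and 1.598-fold higher in resistant SUDHL16. CDK2AP1, a protein that binds and inhibits the kinase CDK2, was 1.59-fold lower and 3.43-fold higher. ZNF773, the zinc finger gene of the 23, was 1.66-fold higher in resistant SUDHL6 and 1.90-fold lower in resistant SUDHL16. Of the 27 and 24 other germinal centre genes tested, LMO2 and TNFRSF14 were raised and HRK, MME and SUGCT were among those lowered in SUDHL6, and BCL7A and DENND3 were raised and ELL3 and HRK lowered in SUDHL16, with or without CE-26.

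GNAZ was the member from the list of G protein and cyclic nucleotide genes, and further signalling proteins of the 55 follow it. GNAZ (ENSG00000128266), a G protein alpha subunit that inhibits adenylyl cyclase, had 10.9, 9.27 and 10.5 CPM in parental and 3.98, 4.37 and 4.31 CPM in resistant SUDHL6. In SUDHL16 it had 0.479 and 0.397 CPM in CE-25 and CE-27, 5.81 CPM in CE-26 and 85.0, 86.5 and 74.6 CPM in the resistant libraries, the largest SUDHL16 ratio of the 78 (187-fold, over 8 and 6 counts), bounds aside. GNAZ went from a trace to a level above any SUDHL6 library. RASGRP2 (ENSG00000068831), the calcium-driven activator of RAP1, had 42.6, 41.2 and 41.5 CPM in parental and 16.8, 15.5 and 17.6 CPM in resistant SUDHL6, and 14.3 and 15.2 CPM in CE-25 and CE-27, 14.5 CPM in CE-26 and 60.3, 39.2 and 49.3 CPM in resistant SUDHL16. The 3 parental SUDHL16 libraries, CE-26 included, nearly coincided for RASGRP2. PHACTR1, which binds actin and protein phosphatase 1, had 33.4, 37.0 and 35.2 CPM in parental and 15.1, 14.2 and 11.7 CPM in resistant SUDHL6, and 24.4 and 31.5 CPM in CE-25 and CE-27, 40.4 CPM in CE-26 and 109, 158 and 170.5 CPM in resistant SUDHL16. Its CE-26 value was above CE-25 and CE-27 and below the resistant libraries. DENND5A, an exchange factor for Rab GTPases, was 2.06-fold lower in resistant SUDHL6 and 2.99-fold higher in resistant SUDHL16. For GNG10, a G protein gamma subunit, these were 1.68-fold and 1.62-fold, for PKIG, an inhibitor of protein kinase A, 1.78-fold and 1.51-fold, and for BCAR1, the scaffold p130Cas, 1.61-fold and 1.62-fold. PIK3R2, the beta regulatory subunit of PI3K, is described with the overlapping genes. Among the other G protein and cyclic nucleotide genes, 4 of 67 were raised and 5 lowered in SUDHL6 and 8 of 64 raised and 2 lowered in SUDHL16 (16 and 2 without CE-26).

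MYL12A, ARHGAP9, ACTR3B, ABI3, EPB41L2, SMTN and SYNE3 are described together. MYL12A (ENSG00000101608), a regulatory light chain of nonmuscle myosin, had 62.3, 57.9 and 59.8 CPM in parental and 122, 119.7 and 121 CPM in resistant SUDHL6, and 284 and 269 CPM in CE-25 and CE-27, 139.6 CPM in CE-26 and 154, 214 and 135 CPM in resistant SUDHL16. ARHGAP9, which switches off RAC1 and CDC42, went the other way, with 16.4, 18.9 and 15.8 CPM in parental and 6.40, 5.38 and 6.02 CPM in resistant SUDHL6, and 27.7 and 42.0 CPM in CE-25 and CE-27, 20.6 CPM in CE-26 and 68.9, 66.4 and 81.2 CPM in resistant SUDHL16. ACTR3B, a form of the Arp3 actin nucleator, had 19.3, 16.7 and 17.4 CPM in parental and 11.999, 10.4 and 10.7 CPM in resistant SUDHL6, and 18.7 and 14.4 CPM in CE-25 and CE-27, 7.50 CPM in CE-26 and 37.5, 39.7 and 28.5 CPM in resistant SUDHL16. The groups were separate for all 3 genes without CE-26, which lay among the resistant libraries for MYL12A only. ABI3, an adaptor of the actin-nucleating WAVE machinery, was 3.36-fold higher in resistant SUDHL6 and 2.11-fold lower in resistant SUDHL16, with 3.60, 5.59 and 4.30 CPM in parental and 14.4, 14.8 and 16.1 CPM in resistant SUDHL6. EPB41L2, which ties spectrin and actin to the membrane, and SMTN, an actin-bound protein, were 1.71-fold and 1.78-fold higher in resistant SUDHL6 and 1.83-fold and 1.65-fold lower in resistant SUDHL16. SYNE3, which links the nucleus to intermediate filaments, was 2.02-fold lower in resistant SUDHL6, and had 0.719 and 0 CPM in CE-25 and CE-27, 11.4 CPM in CE-26 and 57.2, 66.8 and 63.8 CPM in resistant SUDHL16.

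Adhesion and surface proteins of the 55 included LAMA5 (ENSG00000130702), a laminin chain, with 24.1, 24.8 and 24.6 CPM in parental and 11.5, 10.1 and 11.3 CPM in resistant SUDHL6, and 13.5 and 19.1 CPM in CE-25 and CE-27, 18.6 CPM in CE-26 and 226, 179 and 113 CPM in resistant SUDHL16. LAMA5 was 10.6-fold higher in resistant SUDHL16 and the groups were far apart. The semaphorin receptors PLXNA1 and PLXNC1 were 1.90-fold and 1.52-fold lower in resistant SUDHL6 and 2.66-fold and 4.58-fold higher in resistant SUDHL16. PLXNC1 stayed low in SUDHL16 even so, at 4.74, 4.78 and 13.1 CPM in the resistant libraries against 90.6, 95.4 and 89.4 CPM in resistant SUDHL6. TSPAN3, a tetraspanin, had 33.4, 30.6 and 31.7 CPM in parental and 15.04, 15.3 and 16.1 CPM in resistant SUDHL6, and 37.5 and 43.6 CPM in CE-25 and CE-27, 28.3 CPM in CE-26 and 102, 100.03 and 104 CPM in resistant SUDHL16, with little spread in any group. PPFIBP2, a liprin, was 1.85-fold lower in resistant SUDHL6 and 3.20-fold higher in resistant SUDHL16. CMTM3 and TM7SF3, membrane proteins that span the bilayer several times, were 1.54-fold and 1.65-fold lower in resistant SUDHL6 and 1.66-fold and 1.78-fold higher in resistant SUDHL16. The membrane proteins LRP11 and SUSD3 were 1.66-fold and 2.38-fold lower and 4.92-fold and 1.68-fold higher, with SUSD3 at 0 in CE-26. With CE-26 kept the SUDHL16 folds were 2.91 for LRP11, 2.51 for SUSD3 and 2.30 for PLXNC1. MMP14, a membrane-bound metalloproteinase, was the surface enzyme of the 23, 1.64-fold higher in resistant SUDHL6 and 1.53-fold lower in resistant SUDHL16. Among the other integrin and adhesion genes, SEMA4B was raised and CD82, ITGB2 and PLXND1 lowered of 31 in SUDHL6, and ICAM3, PLXNB2 and SEMA4B were raised and ITGAL lowered of 30 in SUDHL16 (8 and 1 without CE-26). ITGAL and ITGB2 encode the chains of LFA-1, the receptor of ICAM1.

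The remaining members have varied roles. APOL6, an interferon-induced apolipoprotein L, had 21.3, 22.9 and 20.6 CPM in parental and 11.4, 11.8 and 11.9 CPM in resistant SUDHL6. It was at 0 in CE-25 and CE-27, at 9.20 CPM in CE-26 and at 17.6, 16.2 and 19.7 CPM in resistant SUDHL16, at least 94.3-fold higher without CE-26. It was the sole member from the list of interferon and innate sensing genes, of which edgeR called 15 of the 70 others raised and BST2 lowered in SUDHL6, and 20 of 85 raised in SUDHL16 (37 of 86 without CE-26). In SUDHL16 edgeR called 0 lowered, where 1 passed at an unadjusted p and DESeq2 called 1. In SUDHL6 APOL6 was thus lower while 15 others of its list rose, its relative APOL2 among them. EEPD1, a nuclease-like protein that acts at stalled replication forks, had 16.9, 16.3 and 16.6 CPM in parental and 38.6, 36.8 and 36.8 CPM in resistant SUDHL6, and 187 and 200.2 CPM in CE-25 and CE-27, 77.4 CPM in CE-26 and 87.7, 93.9 and 90.6 CPM in resistant SUDHL16. LACC1, an enzyme of purine nucleosides in myeloid cells, had 7.72, 7.35 and 7.24 CPM in parental and 15.8, 15.4 and 17.2 CPM in resistant SUDHL6, and 12.8 and 16.9 CPM in CE-25 and CE-27, 10.4 CPM in CE-26 and 1.604, 4.87 and 3.22 CPM in resistant SUDHL16. CE-26 lay below the resistant libraries for EEPD1 and between the groups for LACC1. SEPHS2, which makes the selenium donor for selenoproteins, and NAGPA, which finishes the mannose 6-phosphate tag of lysosomal enzymes, were 1.55-fold and 1.53-fold higher in resistant SUDHL6 and 1.94-fold and 1.59-fold lower in resistant SUDHL16. UEVLD, a ubiquitin-conjugating enzyme variant, was 1.79-fold higher in resistant SUDHL6 and 3.26-fold lower in resistant SUDHL16. Lower in resistant SUDHL6 and higher in resistant SUDHL16 were also NAT8L, which makes N-acetylaspartate (2.05-fold and 6.17-fold), RMI2, a partner of the Bloom helicase (1.65-fold and 3.27-fold), FBXL14, an F-box protein (1.65-fold and 1.71-fold), RNF24, a RING finger protein (1.64-fold and 3.71-fold, the former resting on CE-11 among 9.01, 2.28 and 9.002 CPM in resistant SUDHL6), and TOM1, an endosomal sorting protein (1.54-fold and 1.57-fold). With CE-26 kept the SUDHL16 folds were 1.90 for NAT8L and 2.12 for RNF24. The last of the 55 were NRSN2 (1.94-fold and 2.26-fold), C18orf21 (1.73-fold and 2.37-fold, the latter resting on CE-30 among 7.12, 6.81 and 22.02 CPM in resistant SUDHL16) and OGFRL1, with 82.6, 86.5 and 79.9 CPM in parental and 45.8, 44.9 and 45.6 CPM in resistant SUDHL6, and 282 and 252 CPM in CE-25 and CE-27, 78.7 CPM in CE-26 and 364, 544 and 482 CPM in resistant SUDHL16.

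Some members share exons with another gene on the same strand, so that reads could be given to either. By the annotation this holds for 18 of the 78. For 6 of them (AHR, BBC3, FADS1, HSP90B1, LAMA5 and LRP11) the other gene's counts were not analysed here and no sum was made; the shared part was 29.5% of the exonic bases of AHR, with ENSG00000283321, 44.5% of those of LRP11 and at most 2.39% of the rest. When each of the other 12 was summed with those genes, 6 still met the rule (BCAR1, C18orf21, LACC1, MCL1, SMTN and ZNF773) and 6 did not. PIK3R2 shares 76.4% of its exonic bases with ENSG00000268173. It had 50.3, 56.4 and 37.4 CPM in parental and 28.4, 8.56 and 9.80 CPM in resistant SUDHL6, while ENSG00000268173 had 6.52, 0.824 and 42.1 CPM in parental and 55.4, 197 and 207 CPM in resistant libraries. In SUDHL16 PIK3R2 had 27.9 and 40.2 CPM in CE-25 and CE-27, 0.726 CPM in CE-26 and 95.5, 74.5 and 47.7 CPM in the resistant libraries. The sum of both genes was higher in resistant SUDHL6 (log2 ratio 1.39), opposite to PIK3R2 alone (-1.62), so no fall of PIK3R2 RNA can be read from these counts. ENSG00000258790, a gene without a symbol that shares 97.9% of its exonic bases with PRORP and PSMA6, had 6.26, 9.53 and 21.2 CPM in parental and 21.3, 23.5 and 26.5 CPM in resistant SUDHL6 and log2 ratios of 0.95 and -2.20. Summed with them, its ratios were 0.08 and -0.22. PCDHGB3, a protocadherin of the gamma cluster, went from 1.16 and -0.79 alone to 0.12 and 0.26 summed over the cluster. GNG10 with its readthrough gene kept its directions at -0.69 and 0.47, the latter under the limit. MVP, the major vault protein, shares 5.52% of its exonic bases, mainly with PAGR1, and CCDC141, a coiled-coil protein, shares 1.40% with TTN. Their summed ratios were 0.36 and -0.33 for MVP and 0.43 and -1.48 for CCDC141. TTN was the larger part of its sum in every library, and PAGR1 was the larger part of the MVP sum in SUDHL6 but not in CE-25 and CE-27. By themselves MVP and CCDC141 were 1.91-fold and 1.77-fold higher in resistant SUDHL6 and 1.93-fold and 1.98-fold lower in resistant SUDHL16. At 95% identity over at least 25% of their longest transcript, 12 members also matched a transcript of another gene: AHR, CDK2AP1, DERL3, ENSG00000258790, GNG10, ICAM1, LRP11, PCDHGB3, PIK3R2, PKIG, RNF24 and ZNF773. Genes on the opposite strand overlapped 50 of the members, and 20 had no overlap on either strand. How reads on shared exons or opposite strands were assigned is not stated, and its part was not tested.

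The rule used every library but CE-26. By library totals it lay on the parental side of all 3 resistant SUDHL16 libraries for 51 of the 55 genes (92.7%), and for 93.0% of the 1081 other genes that met the upward SUDHL16 condition. The exceptions among the 55 were DERL3, NAT8L, PLXNC1 and RNF24. For the 23 it lay on the parental side for 10 (43.5%), within the resistant range for 10 (ABI3, CCDC141, ENSG00000258790, EPB41L2, MMP14, MVP, MYL12A, SEPHS2, SLC7A7 and SMTN) and beyond it for 3 (EEPD1, MCL1 and MYBL1), against 39.3% on the parental side for the 807 other genes with the downward condition. Since protein-coding genes took a smaller share of its counts than in the other libraries, CPM over protein-coding totals was also compared: CE-26 was then on the parental side for 21 of the 23 (91.3%, others 69.5%) and 44 of the 55 (80%, others 80.2%). By library totals CE-26 was above both other parental libraries for 5 of the 23, AHR, NAGPA, PCDHGB3, UEVLD and ZNF773 (others 92 of 807), and for 18 of the 55 (others 237 of 1081). Over protein-coding totals these were 6 of the 23 (others 243) and 34 of the 55 (others 512). With CE-26 kept as parental, the SUDHL16 fold moved by a factor of 1.5 or more for AHR of the 23 (47.7 to 80.85). It moved so for 12 of the 55. These included APOL6 (94.3 to 5.82), BBC3 (3.58 to 2.34), FADS1 (16.05 to 9.45), GNAZ (187 to 36.8) and GPX7 (97.5 to 57.2). They also included LRP11 (4.92 to 2.91), NAT8L (6.17 to 1.90), PLXNC1 (4.58 to 2.30) and RNF24 (3.71 to 2.12). The last were SUSD3 (1.68 to 2.51), SYNE3 (174 to 15.5) and ZBTB38 (14.6 to 5.15). GPLD1 (4.70 to 7.05) stayed just short of that factor. The SUDHL16 fold came under 1.5 for 5 of the 23 (MCL1, MMP14, MYBL1, MYL12A and SMTN) and for none of the 55. With 1 library no test was possible, and where CE-26 fell depended on the scale.

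**Figure D4:**
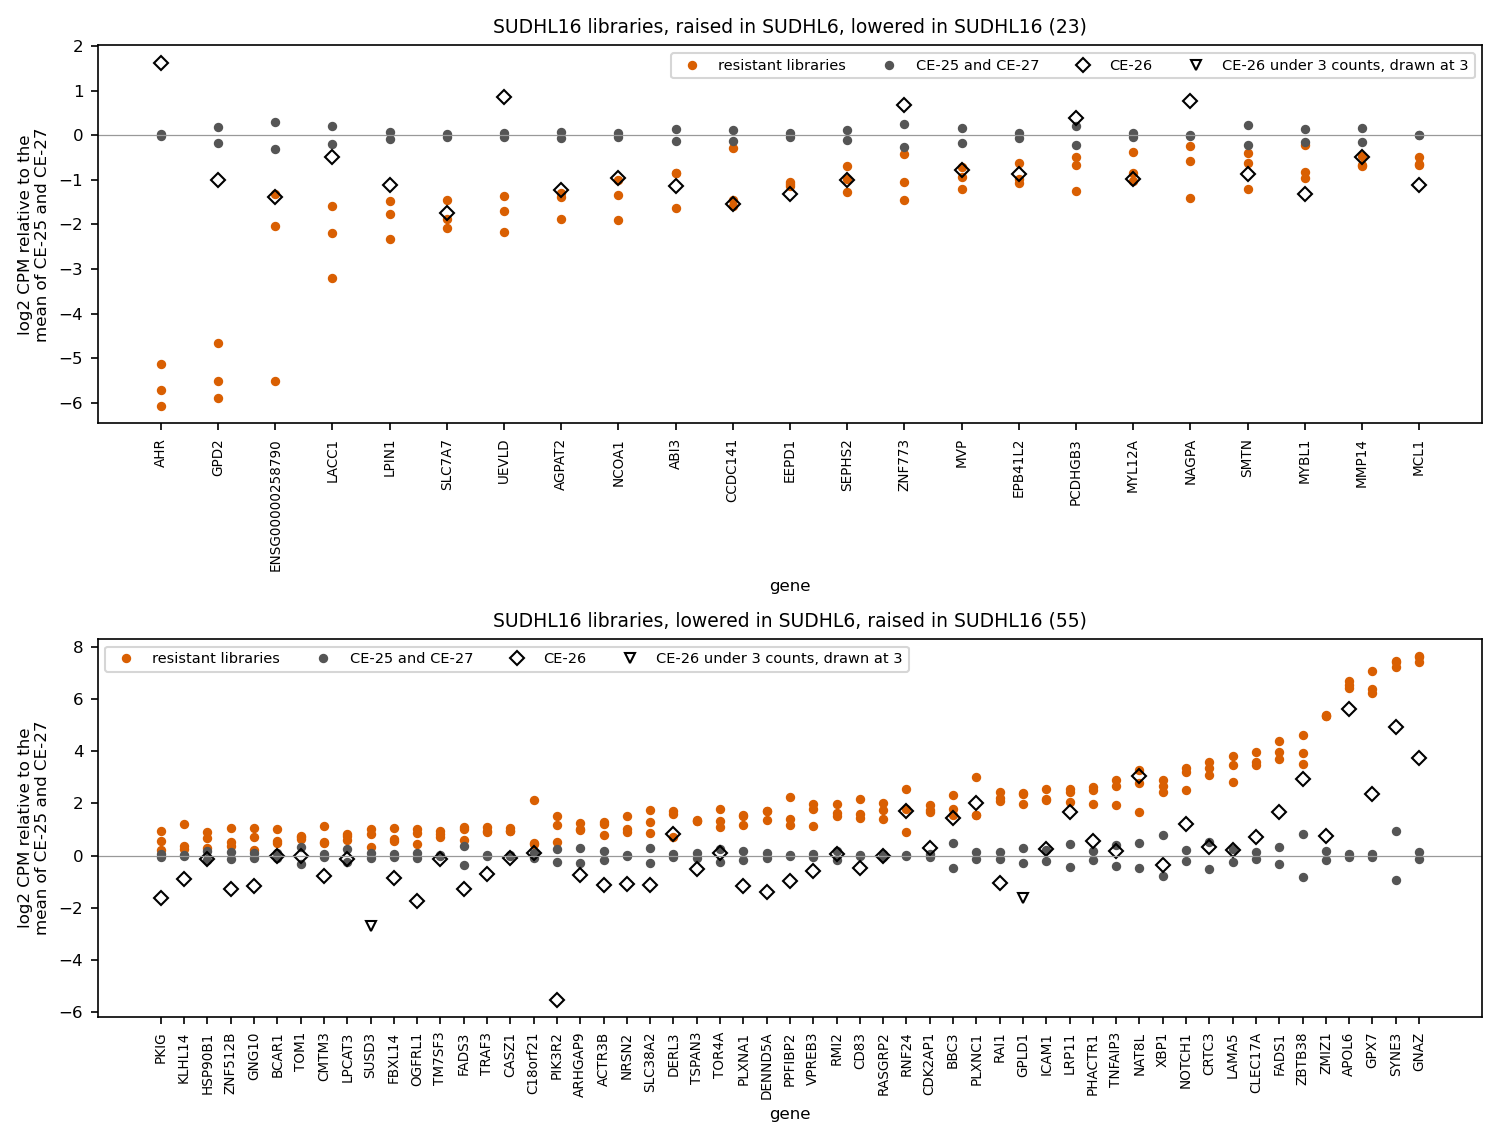
For each member the log2 CPM of the SUDHL16 libraries is drawn relative to the mean of CE-25 and CE-27 (grey), with resistant libraries in orange and CE-26 as a diamond, or as a triangle where it had under 3 counts. CE-26 lies on the parental side for 10 of the 23 genes, within the resistant range for 10 and beyond it for 3 (upper panel), and under the resistant libraries for 51 of the 55 (lower panel).

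Opposite movement changes how far apart the lines are. Among parental libraries, without CE-26, 20 of the 23 genes had a higher mean CPM in SUDHL16, and among resistant libraries 6 did; the median log2 difference, SUDHL16 over SUDHL6, went from 1.51 to -0.68. The sign of the difference turned for 14 of the 23, the gap shrank for 6 (ABI3, AGPAT2, CCDC141, EEPD1, EPB41L2 and MYL12A) and widened for MCL1, MMP14 and SEPHS2. Of the 55, 19 were higher in SUDHL16 among parental and 49 among resistant libraries, with median log2 differences of -0.74 and 2.16. The sign turned for 30, the gap shrank for 6 (C18orf21, FADS1, GPLD1, HSP90B1, NAT8L and PLXNC1) and widened for 19. Over all 8529 genes the sign turned for 19.3%, the gap shrank for 43.5% and widened for 37.2%. TMM scaling over all 12 libraries, which lowers the median difference of the 8529 genes from 0.08 to -0.27 among parental and to -0.25 among resistant libraries, left 13 of the 23 and 29 of the 55 turned. Changes in opposite directions move this difference by construction, and the levels of the lines are also set apart by kit and instrument.

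**Figure D5:**
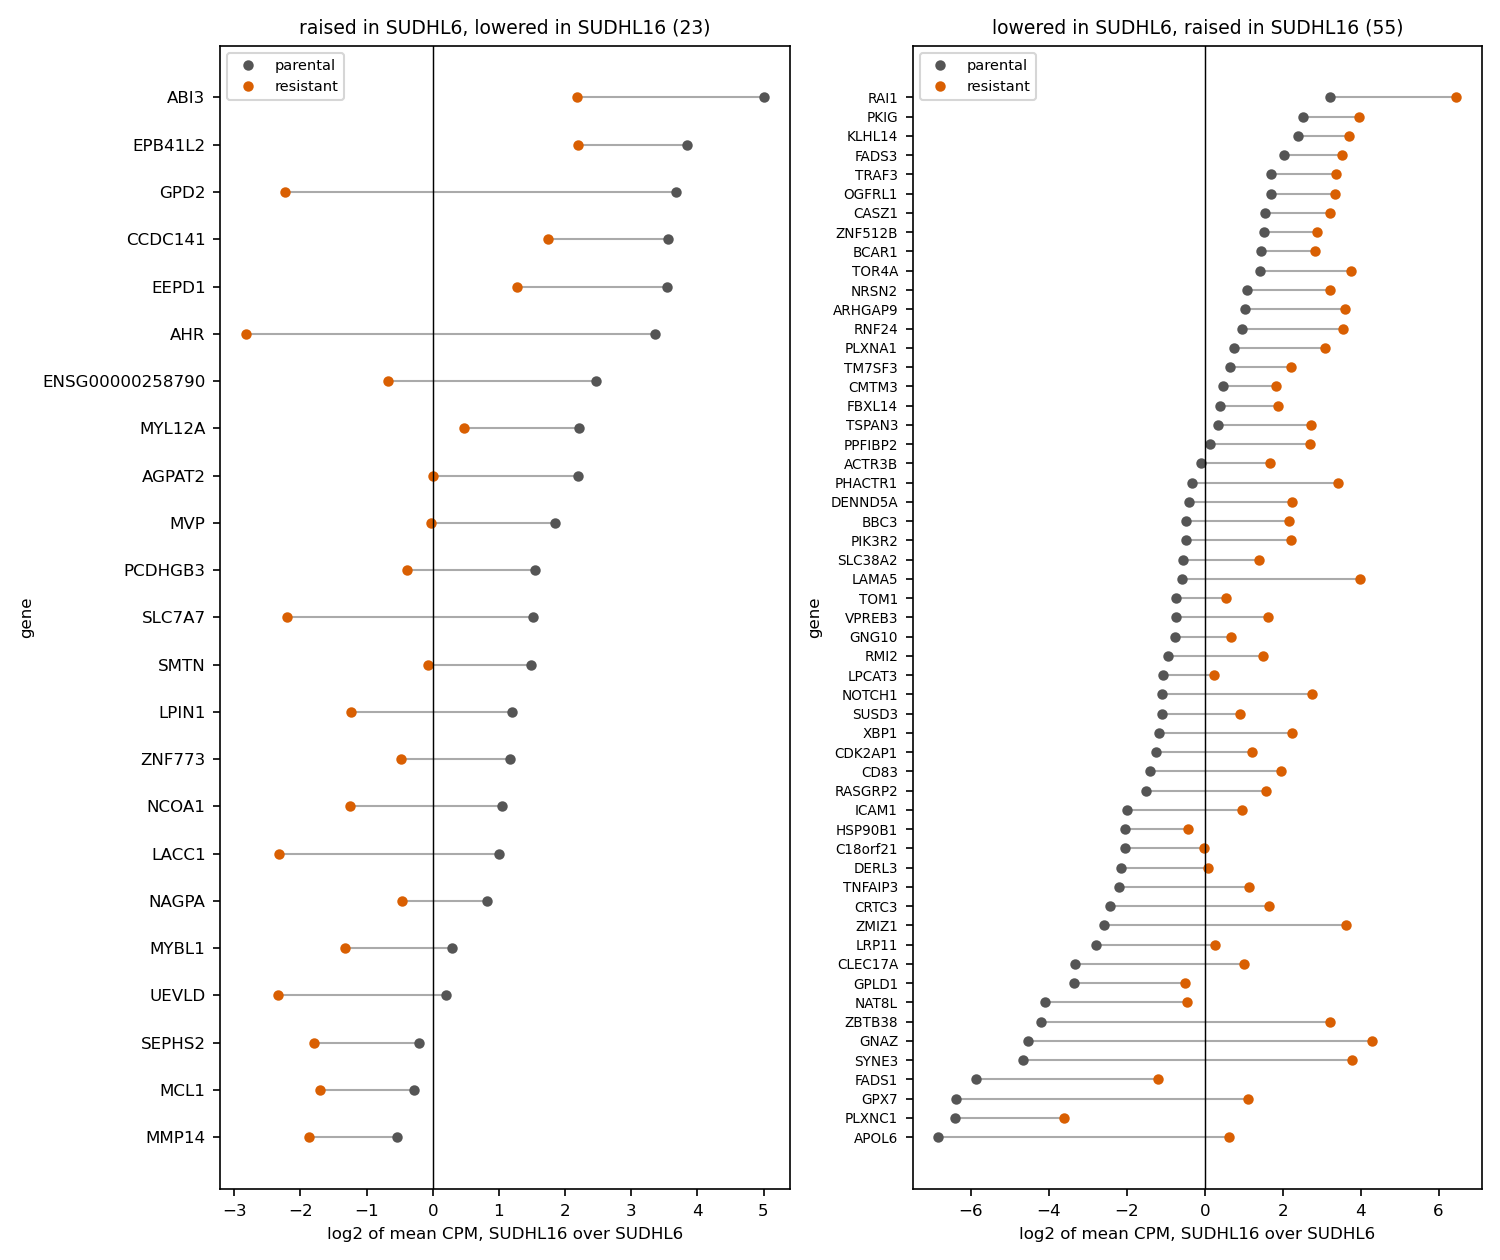
Log2 of mean CPM in SUDHL16 over SUDHL6 for each member among parental (grey) and resistant (orange) libraries, without CE-26, with 0 marking equal levels. Most of the 23 genes move left across 0 and most of the 55 move right across it.

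Position on the chromosomes was not used by the rule. Chromosome 12 held 8 members (10.3%, where 5.52% of the 8529 genes lie), chromosomes 6 and 22 held 7 each (8.97%, against 5.48% and 2.40%), chromosome 1 held 3 (3.85% against 10.3%) and chromosome 21 none. Within 2 Mb of each other lay 13 pairs of members. By their midpoints, the closest were SLC7A7 and MMP14 (41.3 kb), FADS1 and FADS3 (68.3 kb) and DERL3 and VPREB3 (83.2 kb), each in 1 direction, and 2 pairs were of opposite directions, AGPAT2 with NOTCH1 (160.1 kb) and with TOR4A (599.9 kb). The other genes within 2 Mb moved, by their median, the same way as the member in SUDHL6 for 16 of 22 of the 23 with enough neighbours and 37 of the 55, and in SUDHL16 for 17 of 22 and 35 of 55. For the other genes that met the same condition in that line these shares were 71.0% and 79.5% in SUDHL6 and 68.6% and 71.1% in SUDHL16. A neighbourhood shifted by at least 0.3 in log2 was seen in SUDHL6 around MYL12A upward and around C18orf21, FBXL14, KLHL14, LPCAT3 and TM7SF3 downward, the latter all on chromosomes 12 and 18, which is 4.55% and 9.09% of the members where 14.5% and 40.9% of those other genes had one. In SUDHL16 it was seen around 6 of the 23 (27.3%, others 28.4%) and 11 of the 55 (20%, others 34.6%), the latter including CRTC3 and TSPAN3 on chromosome 15 and LAMA5, NRSN2, PKIG, RNF24 and ZNF512B on chromosome 20. These counts depended on the window: within 5 Mb such a shift was seen in SUDHL16 around 2 of the 23 (8.70%, others 23.1%) and 8 of the 55 (14.5%, others 34.7%), and within 1 Mb around 6 of 21 (28.6%, others 31.3%) and 14 of 51 (27.5%, others 38.2%). Within 2 Mb, neighbours moved farther than the member itself for C18orf21 (-0.87 against -0.79) and KLHL14 (-0.81 against -0.66) in SUDHL6. In SUDHL16 the same held for PKIG (0.62 against 0.60), and neighbours of ZNF512B moved nearly as far as it (0.61 against 0.68). In the other shifted neighbourhoods the member moved farther. Whether position set the members' changes was not tested.

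Exon length, base composition and promoter letters were not used by the rule. The median exon length was 5515 bases for the 23, 6027 for the 55 and 5605 for the 8529, and median transcript GC content was 45.7%, 52.8% and 47.1%. Promoter GC content had medians of 60%, 72% and 65.3%. GC boxes were in 11 of 19 and 32 of 43 promoters (72.5% of the 7126), E-boxes in 5 and 5 (11%), AP-1 matches in 1 and 3 (3.51%), ISRE core matches in 2 and 2 (6.30%), GAS matches in 2 and 2 (6.23%), TATA boxes in 1 and 4 (4.72%) and ETS matches in 1 and 1 (11.3%). The CRE letters were in 2 promoters of the 55, ACTR3B and FADS1, and none of the 23 (3.70%), and the octamer in 2, PHACTR1 and VPREB3, and none of the 23 (1.18%). Over all 35116 promoters the shares were 1.85% for NF-kappaB and for CRE, 1.77% for the octamer, 4.14% for ETS, 7.66% for GAS and 11.5% for the TATA box. Nothing here was tested, and with 19 and 43 promoters a share moves by several percent with each gene.

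The fixed gene lists, chosen with earlier results of these data known, placed 22 of the 78 members in 15 of 31 lists (28.2%, and 11.4% of the 8529 genes, which that choice of lists may itself have set apart), and 56 members were in none. Lists without a member were those of B cell antigens, B cell receptor signalling, cell cycle, chromatin, cytokines and TNF family, DNA repair, glycolysis, HLA class I, HLA class II, homing receptors, lysosome, mitochondrial respiration and the other lineages. The lists also hold genes under 5 CPM, so the shares to hold their counts against are those over all genes tested: 4.31% raised and 4.65% lowered in SUDHL6, 3.2% and 2.1% in SUDHL16 and 6.73% and 3.32% there without CE-26. PIK3R2 was the member from the PI3K list, where SESN3 was raised and TRIB1 lowered of 43 others in SUDHL6 and EIF4EBP1, SESN2 and SGK1 were raised and SGK3 lowered of 42 in SUDHL16 (6 and 1 without CE-26). RASGRP2 was the one from the MAPK list, with 3 of 46 others raised and 4 lowered in SUDHL6 and 5 of 39 raised and JUN lowered in SUDHL16 (11 and 3 without CE-26). KLHL14 was the one from the ubiquitin ligase list, with 3 of 59 others raised and USP46 lowered in SUDHL6 and ASB13 and USP2 raised and NEDD4, NEDD4L and USP53 lowered of 52 in SUDHL16 (4 and 4 without CE-26).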

How the data were processed

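The deposited values were counts per gene that the authors made from RNA-seq reads of 12 libraries. The labels name Trim Galore, HISAT2, StringTie, edgeR and the genome GRCh38, without versions, and do not give the counting tool or its handling of strand. Genes were matched by identifier to GENCODE 44, which holds 93.2% of the 60675 listed. CPM was the count over the total of all identifiers. Library totals were 34177881, 33992784 and 40885665 (SUDHL6 parental), 40170602, 40298116 and 36212755 (SUDHL6 resistant), 16685929, 4131927 and 15098425 (SUDHL16 parental) and 14335460, 20104607 and 22068221 (SUDHL16 resistant). A group mean was bounded at 3 counts per library where all its libraries had 0, which covers counting error only. A 0 beside a library with counts entered the mean as 0, as for SYNE3 in CE-27.

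Members followed the rule stated in the report. The members and gene lists were chosen with earlier results of these data known. Differential expression used edgeR 4.0.16 in R 4.3.3 (filterByExpr, TMM, quasi-likelihood F test, two-sided, Benjamini-Hochberg over all genes tested), each line fitted apart and the interaction of line and resistance over 12 libraries, with DESeq2 1.42.0 as an alternative. Other steps used Python 3.11.15, pandas 2.3.3, numpy 2.4.6, matplotlib 3.10.9 and minimap2 2.31. The fits and the rule were tested on simulated data. Named genes were, per direction, the 10 members whose smaller absolute log2 ratio was largest, the 5 with the highest CPM per kb of exon, up to 4 per list with at least 2 members and the 3 nearest each side of the ratio limit, and the 2 other genes with the smallest adjusted p per line in lists with at least 3 members. Other genes named from lists or counts were chosen after their values were seen. Alternatives were other scalings, fold limits, CPM floors, overlap allowed, CE-26 kept, test calls in place of ratios, DESeq2, no filter, windows of 1 and 5 Mb and each library left out. Added after seeing the data were test calls with CE-26 left out, CE-26 compared over protein-coding totals, gene sums over shared exons, the count of turned gaps under another scaling and the ratios of all members with CE-26 kept or a library left out. Some single marker genes, and one gene list of the design with the 4 other genes named from it, are not reported here; the 4 stay in the tally of named ratios.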

Additional observations from a re-analysis of the deposited data

Results flagged for a closer look

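Effects that differ between the lines are what chose these genes, so the following values restate the choice. In 23 genes every SUDHL6 resistant library was above every parental one and every SUDHL16 resistant library below both parental ones used, and in 55 genes the reverse held. The difference was tested by the interaction of line and resistance in edgeR, which called 66 of the 78, and this too is a description, since the difference chose them.

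CE-26 was outside the rule and held signals above the other parental SUDHL16 libraries. AHR reached 380.2 CPM in it, where CE-25 and CE-27 had 126 and 121 CPM. By library totals it was above both of those libraries for 5 of the 23 genes lowered in resistant SUDHL16 and for 18 of the 55 raised there, as for 92 of the 807 and 237 of the 1081 other genes with the same SUDHL16 condition. Over protein-coding totals these were 6, 34, 243 and 512. The sums of the erythroid, of the myeloid and of the epithelial and stromal marker list were also highest in CE-26, and their part in these values was not tested.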

How the results depend on the processing

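No named gene's ratio changed sign under other scalings, with CE-26 kept, by edgeR's fitted change or with a library left out (100 ratios; 840 comparisons moved by less than the spread between libraries and 60 by more). Of the 50 SUDHL16 ratios, 25 moved by more than the spread with CE-26 kept and 18 by edgeR's fitted change. Summed over shared exons, PIK3R2 changed sign in SUDHL6 (-1.62 to 1.39) and PCDHGB3 in SUDHL16 (-0.79 to 0.26). The counts of 23 and 55 became 4 and 13 with a fold limit of 2, 114 and 163 with a lower one, 59 and 100 with a floor of 1 CPM and 9 and 22 with a floor of 20 CPM, as looser and stricter limits must. CE-26 kept gave 11 in place of 23. edgeR calls in both lines in place of the ratio rule gave 6 and 28, and 11 and 39 with CE-26 left out, an alternative chosen after seeing the data. Leaving out 1 library gave 21 to 27 and 51 to 58. It took the fold of some members under 1.5, in SUDHL6 4 of the 23 and 8 of the 55 and in SUDHL16 6 and 11, and it lowered the SUDHL16 fold of C18orf21, PLXNC1, SYNE3, XBP1 and ZBTB38 by a factor of 1.5 or more (C18orf21 from 2.37 to 1.38 without CE-30). By as much it raised the SUDHL16 fold of CRTC3 (9.57 to 14.8), ENSG00000258790 (4.61 to 7.69), SYNE3 (174 to 315), XBP1 (5.48 to 11.04) and ZBTB38 (14.6 to 30.2). The SUDHL6 fold rose so for ENSG00000258790 (1.93 to 3.004) and PIK3R2 (3.08 to 5.23). TMM scaling gave 20 and 59, protein-coding totals 23 and 58, and sums over shared exons, also added later, 19 and 53.

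Members called in SUDHL6 went from 77 to 15 in a joint fit of 12 libraries, and in SUDHL16 from 33 to 55. That fit shares a spread between a tight and a wide line, and whether this set the counts was not tested. The share over all genes was not taken for it or for the fits with a library left out, SUDHL16 without CE-26 aside. These counts therefore show nothing particular to the members. Leaving out 1 library gave 72 to 77 in SUDHL6, 10 to 49 in SUDHL16 and 55 to 77 for the difference. In SUDHL16 the count was 11 without CE-25, 49 without CE-26, 15 without CE-27, 12 without CE-28, 10 without CE-29 and 10 without CE-30; the cause was not tested. The count of the 23 with CE-26 on the parental side went from 10 to 21 over protein-coding totals, also added later. Neighbours within 1 and 5 Mb moved the same way in SUDHL6 for 18 of 21 (85.7%, other genes 75.2%) and 13 of 23 (56.5%, others 71.4%) and, in the other direction, for 37 of 51 (72.5%, others 74.0%) and 28 of 55 (50.9%, others 78.0%). In SUDHL16 these were 18 of 21 (85.7%, others 65.9%), 15 of 23 (65.2%, others 69.7%), 31 of 51 (60.8%, others 72.3%) and 35 of 55 (63.6%, others 69.7%). Depth limits genes such as DERL3, SUSD3 and ZNF773, and 3 counts allow up to 0.726 CPM in CE-26 and 0.136 to 0.209 CPM in the other SUDHL16 libraries.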
